A study of Mus musculus with 6 samples.

Results

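The genes described here are 10 members of the insulin-like growth factor (IGF) system: the ligand Igf1, the receptors Igf1r and Insr, the receptor substrates Irs1 and Irs2, and the binding proteins Igfbp2, Igfbp3, Igfbp4, Igfbp5 and Igfbp6. They were chosen by name, with earlier results of these data known. A probe set was accepted where the platform's annotation gave it a single gene symbol. All 10 genes were found, through 12 probe sets, among the 19937 genes tested. For Insr and Irs1, which have several probe sets, the one with the highest mean over the 6 arrays was used.

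RNA of 3 MTT and 3 MPC samples was hybridised to 1-colour Affymetrix Mouse Gene 1.0 ST arrays. Both are mouse pheochromocytoma lines, that is, tumor cells of the adrenal medulla. According to the methods, the MPC line came from Nf1 knock-out mice and is well differentiated, and the rapidly growing MTT line was taken from liver metastases of MPC cells, so that Nf1 loss is part of the background of both. Each group is a single cell line without drug treatment, kept in medium with fetal bovine and horse serum. The submitters' field for tissue source names a liver metastasis on all 6 samples, so the MPC group rests on the titles and the cell type field. No source used here tells whether a line's 3 samples were separate cultures, and p-values therefore measure the spread between these samples, which may be technical.

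IGF1 and IGF2 bind the IGF1 receptor, a tyrosine kinase closely related to the insulin receptor, and the activated kinase phosphorylates the docking proteins IRS1 and IRS2. These recruit PI3K, which leads through AKT to growth, to survival and to the exclusion of FOXO transcription factors from the nucleus. In the extracellular space most IGF is held by IGF binding proteins, which can block or prolong its action and are themselves cut by proteases.

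Igfbp5, Irs1 and Igf1r differed between the lines, and 150 bases around the annotated transcription start of each, with those of Irs2 for comparison with Irs1, are shown here as RefSeq gives them for GRCm38.p6 (130 bases before the start and 20 from it, 5′ to 3′ on the gene's strand). Capitals mark matches to the TATA-like box TATTTAA, the E-box CACGTG, the insulin response sequence core TGTTTTG and the GC box GGGCGG.
Igfbp5 (chr1:72874846-72874995, minus strand): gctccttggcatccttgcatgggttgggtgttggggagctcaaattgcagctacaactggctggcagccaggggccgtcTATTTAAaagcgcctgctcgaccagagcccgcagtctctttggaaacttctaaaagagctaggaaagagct
Irs1 (chr1:82291420-82291569, minus strand): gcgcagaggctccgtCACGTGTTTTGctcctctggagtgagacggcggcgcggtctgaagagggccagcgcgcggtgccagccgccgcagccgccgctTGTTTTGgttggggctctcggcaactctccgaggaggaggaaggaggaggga
Irs2 (chr8:11008910-11009059, minus strand): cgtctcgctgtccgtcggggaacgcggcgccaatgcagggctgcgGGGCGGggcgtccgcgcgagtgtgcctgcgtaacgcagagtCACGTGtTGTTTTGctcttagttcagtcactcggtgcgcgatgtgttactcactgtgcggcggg
Igf1r (chr7:67952127-67952276, plus strand): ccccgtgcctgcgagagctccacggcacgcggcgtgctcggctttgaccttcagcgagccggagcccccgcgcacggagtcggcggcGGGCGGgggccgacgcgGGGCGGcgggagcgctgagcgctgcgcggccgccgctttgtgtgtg
The motifs were chosen after these sequences had been read, and both strands of the whole 300-base window of the table were searched. In Irs1 the E-box and the insulin response sequence core overlap by their shared TG, whereas in Irs2 1 base lies between them. Of the 32851 windows in the table, 7.15% hold the E-box, 6.28% the insulin response sequence core, 4.51% the TATA-like box and 35.7% the GC box. Of the 9 members with a window in the table, Irs1 and Irs2 were those with the insulin response sequence core, and Igfbp5 the one with the TATA-like box. The E-box was found in Igfbp2 as well as in Irs1 and Irs2. The GC box was found in Igf1r, Igfbp2, Irs1 and Irs2, in Irs1 before the bases printed. The FOXO core TGTTTAC, present in 3.65% of all windows, was found in no member. The TATA box TATAAA, present in 13.6%, was found in Igfbp4 and Igfbp6. These matches describe letters and not sites in use.

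Igfbp5, the most conserved of the IGF binding proteins and one that also binds the extracellular matrix, showed the largest difference among the 10 genes. Its log2 signal was 10.52, 10.57 and 10.73 on the MTT arrays, against 11.27, 11.13 and 11.35 on the MPC arrays. Every MTT array lay below every MPC array. Igfbp5 fell by 0.65 on the log2 scale in MTT cells (standard error 0.07, 95% interval -0.81 to -0.49, limma adjusted p = 0.00114), a linear signal ratio of 0.639. Among the 19937 genes it ranked 108 by the size of its difference. When each array was dropped in turn, Igfbp5 passed all 6 times (adjusted p 0.0016 to 0.00791). With ordinary variances it stood close to the threshold (adjusted p = 0.0474).

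Igfbp5 is also made by fibroblasts, and 8 fibroblast markers were set beside it, averaging 7.25 to 7.27 across MTT arrays and 7.29 to 7.38 across MPC arrays. The part of such cells in the result was not tested, and in bulk RNA fewer cells of a type and less RNA per cell cannot be told apart. Of the 8 genes Thy1 alone passed the test, with 8.11 ± 0.03 (SD of 3 arrays) in MTT cells, against 8.61 ± 0.09 (SD of 3 arrays) in MPC cells (limma adjusted p = 0.000638). Thy1 is a surface protein of neurons as well. Without Thy1 the other 7 markers averaged 7.13 to 7.15 across MTT arrays and 7.11 to 7.20 across MPC arrays. Of the 8 markers 4 lay above the median signal of all probe sets, 7.74: Thy1 and the collagens Col1a1, Col1a2 and Col3a1, with mean signals of 8.74, 8.30 and 8.18 for the collagens and log2 differences of -0.03, -0.05 and -0.01 that did not pass. Lum and Dcn, matrix proteoglycans, were dim, with mean signals of 4.34 and 5.90.

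**Figure D1:**
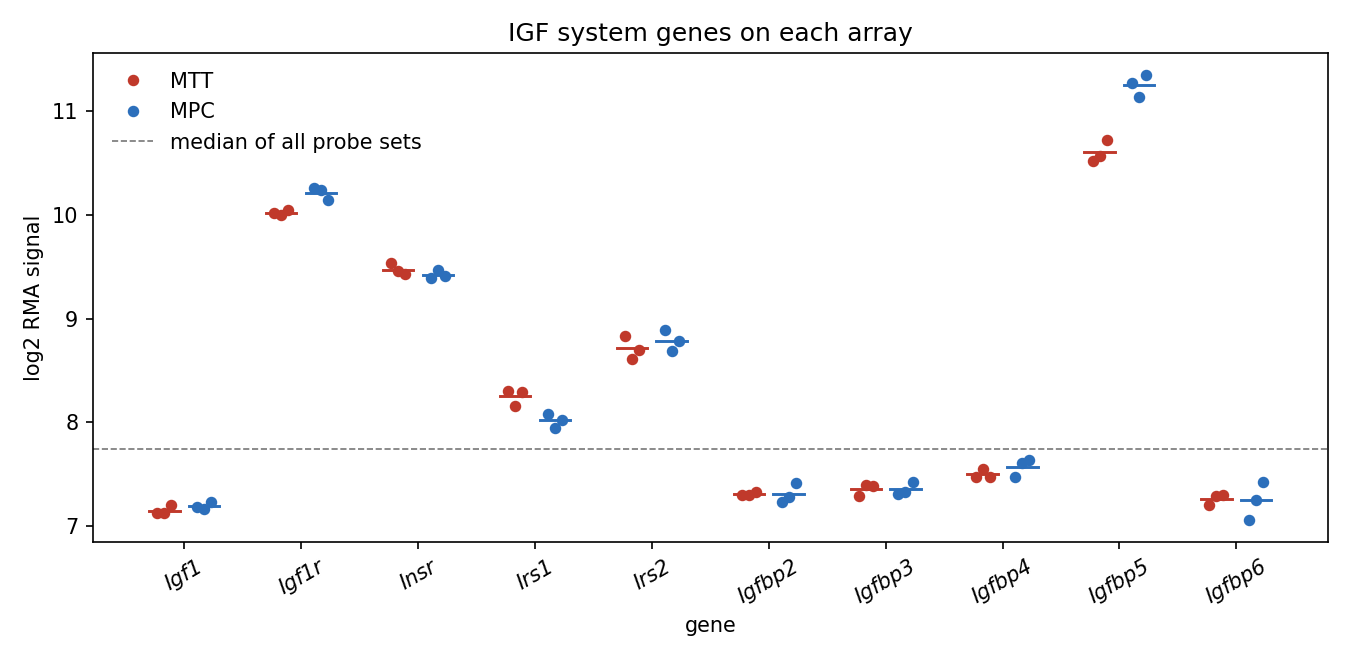
log2 RMA signal (vertical axis) of the 10 genes (horizontal axis), with MTT arrays in red and MPC arrays in blue, 3 of each. A point stands for 1 array, each bar the mean of 3, and the dashed line the median of all probe sets, 7.74. The arrays of the lines do not overlap for Igf1r, Irs1 and Igfbp5.

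Igfbp2, the neighbour of Igfbp5 on chromosome 1, was not called. The genes lie on opposite strands with their 3′ ends facing each other. Igfbp2 read 7.30, 7.30 and 7.33 on the MTT arrays, against 7.23, 7.27 and 7.41 on the MPC arrays, and the MTT arrays fell within the range of the MPC arrays. Its log2 difference was 0.00 (95% interval -0.11 to 0.12, limma adjusted p = 0.983). The nearest measured gene on the other side of Igfbp5 was Tnp1, a sperm nuclear protein, with a log2 difference of 0.19 that did not pass (limma adjusted p = 0.202). The mean signal of Tnp1, 6.68, lay under the median of all probe sets and is not shown to lie above background. Within each array, Igfbp2 minus Igfbp5 was -3.30 ± 0.09 (SD of 3 arrays) in MTT cells, against -3.95 ± 0.09 (SD of 3 arrays) in MPC cells, a difference of 0.65 between the lines. The exact permutation test of this difference (two-sided) gave p = 0.1, the smallest value that 3 against 3 arrays allow. Since the signal of Igfbp2 is not shown to lie above background, this value says little of Igfbp2 and rests on Igfbp5.

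The other binding proteins were dim and close to equal. Igfbp3, the main carrier of IGF in serum, read 7.28, 7.39 and 7.39 on the MTT arrays, against 7.31, 7.33 and 7.42 on the MPC arrays. Igfbp4, an inhibitor of IGF action, read 7.47, 7.55 and 7.47 on the MTT arrays, against 7.47, 7.61 and 7.64 on the MPC arrays. Igfbp6, which prefers IGF2 over IGF1, read 7.20, 7.29 and 7.30 on the MTT arrays, against 7.06, 7.25 and 7.42 on the MPC arrays. The lines overlapped for all of these. The 95% intervals of the log2 difference were -0.10 to 0.11 for Igfbp3, -0.19 to 0.05 for Igfbp4 and -0.18 to 0.21 for Igfbp6 (limma adjusted p = 0.992, 0.486 and 0.948). Igfbp6 had the widest interval of the 10 genes, with an MPC spread of 0.37 between its lowest and highest array. Signals of these genes and of Igfbp2 lay under the median of all probe sets, 7.74, and are not shown to lie above background.

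Igf1, the ligand, was dim in the same way, at 7.12, 7.12 and 7.20 on the MTT arrays, against 7.18, 7.17 and 7.23 on the MPC arrays. The lines overlapped, and the log2 difference was -0.05 (95% interval -0.13 to 0.04, limma adjusted p = 0.554).

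Igf1r, the tyrosine kinase receptor of IGF1 and IGF2, was lower in MTT cells by a small amount. It read 10.02, 9.998 and 10.05 on the MTT arrays, against 10.26, 10.24 and 10.15 on the MPC arrays, with no overlap. Igf1r fell by 0.19 on the log2 scale in MTT cells (standard error 0.04, 95% interval -0.29 to -0.10, limma adjusted p = 0.0243), a linear signal ratio of 0.874. When each array was dropped in turn, Igf1r missed the threshold 5 of 6 times (adjusted p 0.0566 to 0.0984) and passed without MPC replicate 3 (adjusted p = 0.0142). It also missed with ordinary variances (adjusted p = 0.0937) and over all probe sets (adjusted p = 0.0849). The neighbours of Igf1r on chromosome 7, Synm and Pgpep1l, had log2 differences of 0.02 and 0.21, and neither passed (limma adjusted p = 0.828 and 0.363). Their mean signals, 7.44 and 6.93, lay under the median of all probe sets and are not shown to lie above background.

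Insr, the insulin receptor, was not called. The probe set used read 9.54, 9.46 and 9.43 on the MTT arrays, against 9.39, 9.47 and 9.41 on the MPC arrays, and the lines overlapped. Its log2 difference was 0.05 (95% interval -0.05 to 0.14, limma adjusted p = 0.591). The second probe set of Insr read 9.06, 8.96 and 8.96 on the MTT arrays, against 8.93, 8.93 and 8.88 on the MPC arrays. Those arrays did not overlap, but the log2 difference of 0.08 did not pass either (limma adjusted p = 0.47 over all 34760 probe sets, of which 2.71% passed). Within each array, Igf1r minus Insr was 0.55 ± 0.07 (SD of 3 arrays) in MTT cells, against 0.79 ± 0.07 (SD of 3 arrays) in MPC cells, a difference of -0.24 between the lines. The exact permutation test (two-sided) again gave the smallest possible p = 0.1.

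**Figure D2:**
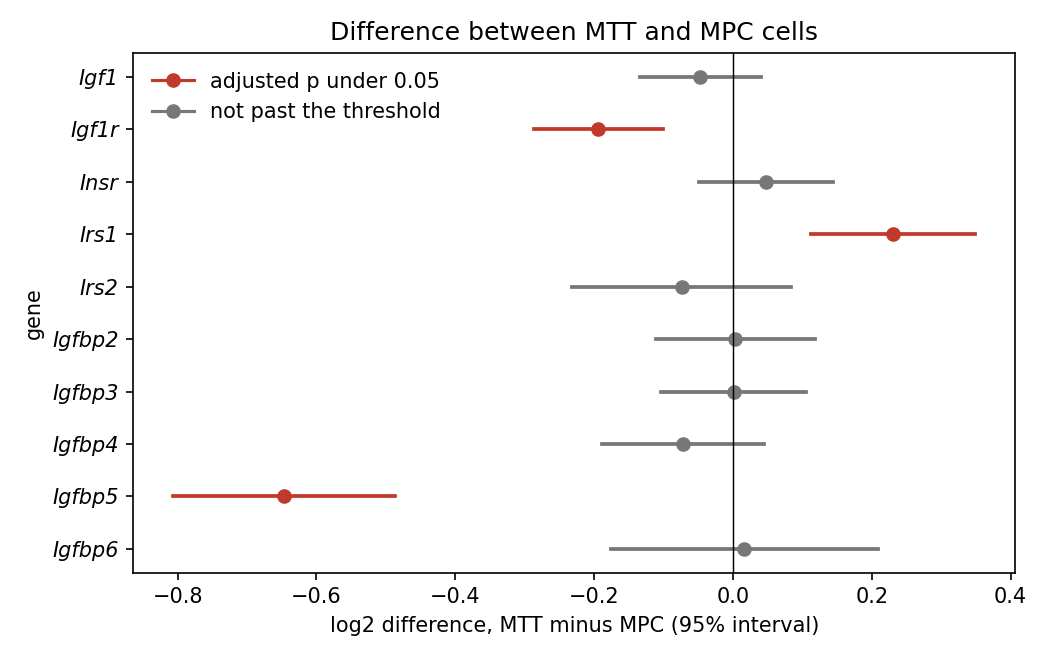
log2 difference between MTT and MPC cells (horizontal axis, MTT minus MPC) of the 10 genes (vertical axis), from limma over 3 arrays of each line. Points are the estimates and lines their 95% intervals. Igfbp5 at -0.65, Igf1r at -0.19 and Irs1 at 0.23 (red) passed an adjusted p of 0.05.

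Irs1, a docking protein of both receptors, was higher in MTT cells. It read 8.30, 8.16 and 8.29 on the MTT arrays, against 8.08, 7.95 and 8.02 on the MPC arrays, with no overlap. In MTT cells Irs1 rose by 0.23 on the log2 scale (standard error 0.05, 95% interval 0.11 to 0.35, limma adjusted p = 0.0312), a linear signal ratio of 1.17. Dropping each array in turn, Irs1 missed the threshold 4 of 6 times (adjusted p 0.0734 to 0.117) and passed without MTT replicate 2 (adjusted p = 0.0284) or MPC replicate 1 (adjusted p = 0.0405). It also missed with ordinary variances (adjusted p = 0.147) and over all probe sets (adjusted p = 0.108). A second probe set of Irs1 was dim, at 5.72 ± 0.05 (SD of 3 arrays) in MTT cells, against 5.73 ± 0.02 (SD of 3 arrays) in MPC cells, and with the mean of both probe sets the difference was 0.11 and did not pass (adjusted p = 0.141). The neighbours of Irs1 on chromosome 1, Nyap2 and Rhbdd1, had log2 differences of -0.07 and -0.06 and did not pass (limma adjusted p = 0.28 and 0.471).

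Irs2, the docking protein whose transcription FOXO factors are known to raise, read 8.83, 8.61 and 8.70 on the MTT arrays, against 8.89, 8.68 and 8.78 on the MPC arrays. The lines overlapped, and the log2 difference was -0.07 (95% interval -0.23 to 0.08, limma adjusted p = 0.619). Within each array, Irs1 minus Irs2 was -0.46 ± 0.06 (SD of 3 arrays) in MTT cells, against -0.77 ± 0.04 (SD of 3 arrays) in MPC cells. This difference of 0.30 gave the smallest possible p = 0.1 in the exact permutation test (two-sided). Over the 3 pairs of related genes compared in this way, each adjusted p was 0.1. With probe sets averaged per gene, Irs1 minus Irs2 differed by 0.18 between the lines, with p = 0.2 in the exact permutation test.

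**Figure D3:**
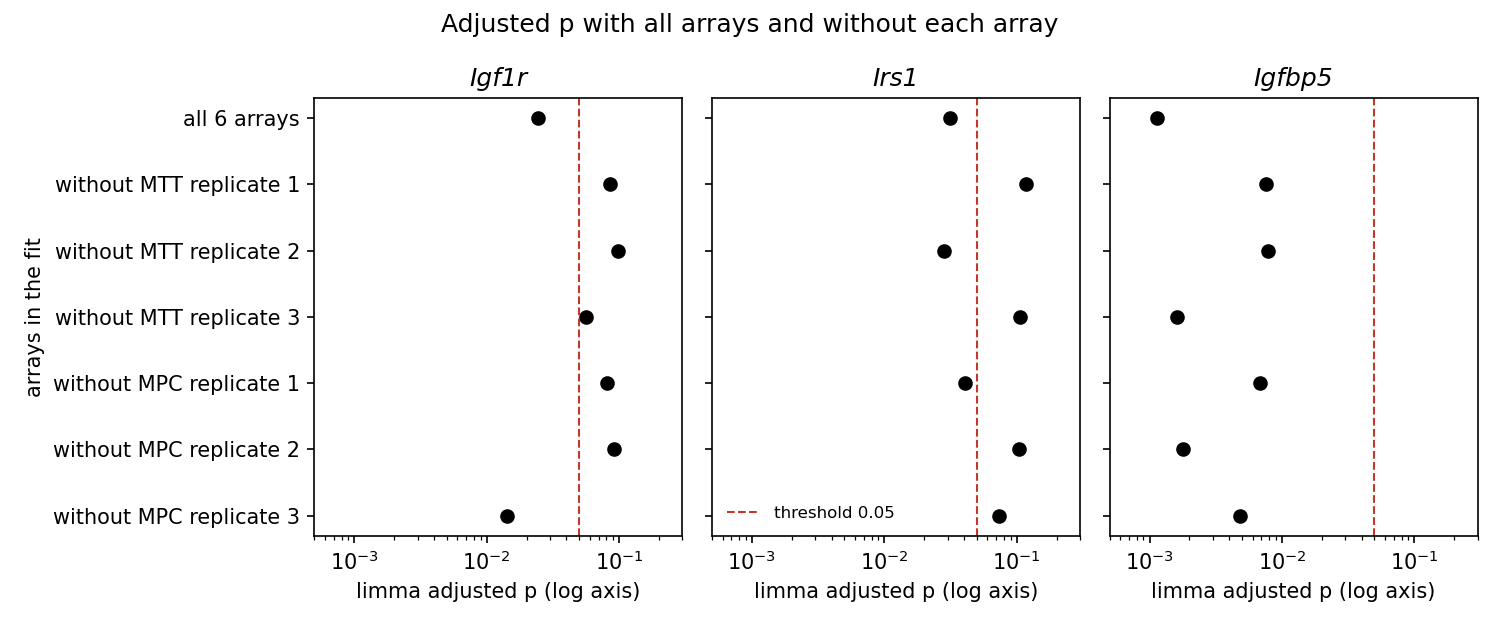
limma adjusted p (horizontal axis, log scale) of Igf1r, Irs1 and Igfbp5 in the fit of all 6 arrays and in the 6 fits without 1 array (vertical axis). The dashed line is the threshold of 0.05. Igfbp5 stays below it in every fit, at 0.0016 to 0.00791 without 1 array, while Igf1r passes it in 1 and Irs1 in 2 of those 6 fits.

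As a group, the 10 genes held 1 that was higher in MTT cells (Irs1) and 2 that were lower (Igf1r and Igfbp5), where 7.87% of all genes passed the test, 3.93% higher and 3.94% lower. Since the members were chosen with earlier results of these data known, these shares do not test them as a group. The arrays of the lines did not overlap for 3 of the 10 genes, against 27.2% of all genes, which is close to the background. Of all genes 15.4% were lower without overlap, as were 2 members, Igf1r and Igfbp5, and 11.7% higher without overlap, as was 1 member, Irs1. The median log2 difference of the 10 genes was -0.02, and that of all genes -0.01. The called genes were 3 of the 5 members above the median signal, and none of the 5 below it was called (limma, where 0 of those had an unadjusted p under 0.05). In a limma fit of the 11415 genes above the median signal alone, 1023 were called higher and 1196 lower. Calls were thus common among brighter genes, and the split is not read as a trait of the members. The median absolute log2 difference over all called genes was 0.23, a size that Igfbp5 exceeded and Igf1r and Irs1 did not. The 3 genes whose signal followed that of Igfbp5 most closely over the 6 arrays were Cttnbp2, Cd2ap and Chd9, with Pearson's r of 0.996, 0.995 and 0.992. Since the lines differ, many genes share such a pattern, and 266 had r over 0.95.

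**Figure D4:**
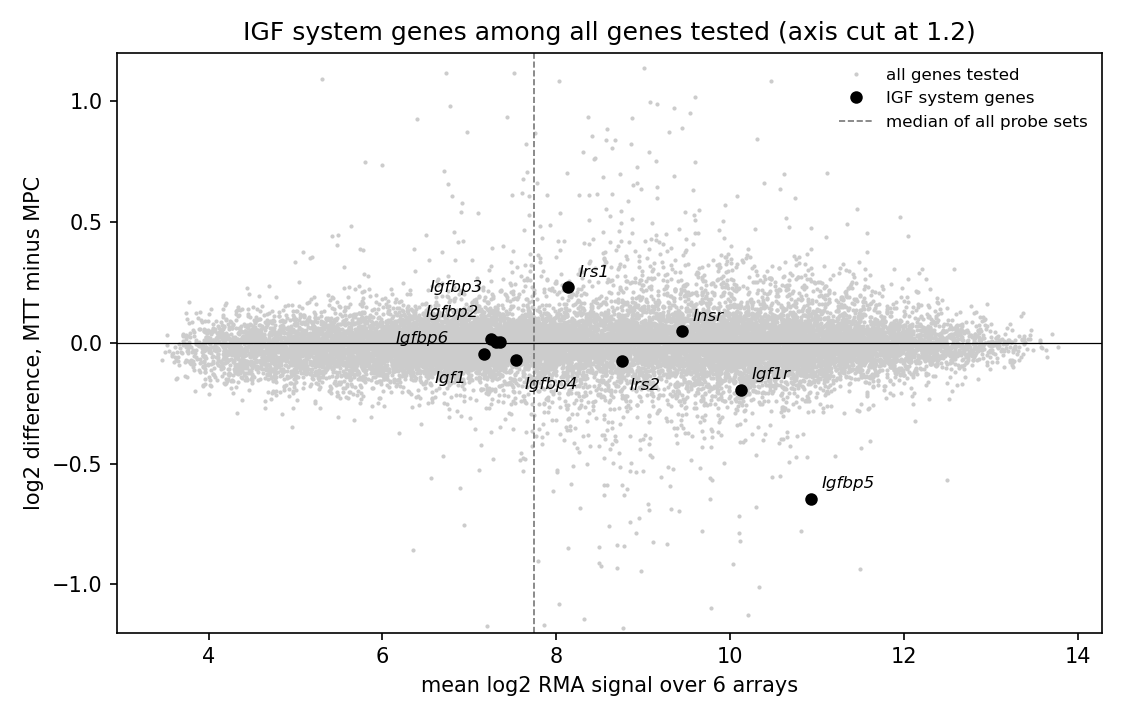
log2 difference between MTT and MPC cells (vertical axis, MTT minus MPC) against the mean log2 RMA signal over the 6 arrays (horizontal axis) for all 19937 genes (grey) and the 10 IGF system genes (black). The axis leaves out 18 genes beyond 1.2, and the dashed line is the median of all probe sets, 7.74. Igf1, Igfbp2, Igfbp3, Igfbp4 and Igfbp6 lie below that median and near 0.

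Beyond these members, 10 of 11 further ligands, receptors, binding proteins and substrates were measured, of which MTT cells had 1 higher and 2 lower. Of all genes 3.93% were higher and 3.94% lower. Insrr, an orphan receptor of the insulin receptor family that senses alkaline pH, read 9.05, 8.94 and 9.04 on the MTT arrays, against 9.64, 9.65 and 9.50 on the MPC arrays. Insrr fell by 0.59 on the log2 scale (standard error 0.05, limma adjusted p = 0.000345), nearly as far as Igfbp5. Igfbp7, a secreted protein related to the binding proteins but with low affinity for IGF, went the other way, at 10.07, 10.17 and 10.09 on the MTT arrays, against 9.72, 9.64 and 9.57 on the MPC arrays. Igfbp7 rose by 0.47 (standard error 0.05, limma adjusted p = 0.000856). Both genes passed whichever array was dropped. Igf2r, which clears IGF2 and signals little, read 11.11 ± 0.03 (SD of 3 arrays) in MTT cells, against 11.25 ± 0.02 (SD of 3 arrays) in MPC cells (limma adjusted p = 0.0461), which missed the threshold in all 6 of those fits (adjusted p 0.0824 to 0.149). The ligands Igf2 and Ins2 were as dim as Igf1, with log2 differences of 0.01 and 0.00, and Igfbp1 had one of -0.03; none passed (limma adjusted p = 0.946, 0.997 and 0.853).

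None of 6 binding protein proteases and their inhibitors passed in limma, where 7.87% of all genes passed. Of the 6, 0 had an unadjusted p below 0.05, as against 4092 of all 19937 genes. Mean signals of Pappa, Pappa2, Stc2, Htra1 and Adam12 (6.34 to 7.29) lay under the median of all probe sets. They are not shown to lie above background, so the list says little of these genes. The smallest p of this list were those of the stanniocalcin Stc1 and the protease Adam12, with log2 differences of -0.08 and 0.08. Of 3 measured RNA-binding proteins that act on Igf2 mRNA, Lin28b, which blocks let-7 maturation, rose by 0.39 (limma adjusted p = 0.00458). Its signal of 6.56 ± 0.09 (SD of 3 arrays) in MTT cells, against 6.17 ± 0.07 (SD of 3 arrays) in MPC cells lay under the median of all probe sets, and the call ended with ordinary variances (adjusted p = 0.0698).

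Among the receptor's adaptors and the PI3K branch, Pik3r1 was the one gene that passed. None of 14 adaptors and negative regulators at the receptor passed in limma, where 7.87% of all genes passed. Of the 14, 2 had an unadjusted p below 0.05, as did 4092 of all 19937 genes. The smallest p were those of the adaptor Grb14 and the feedback inhibitor Socs2, with log2 differences of -0.09 and 0.16 (limma adjusted p = 0.2 and 0.216). Of 16 measured genes of the PI3K, AKT and mTOR branch, 1 was higher and none lower, or 6.25% called, which is near the 7.87% of all genes. Pik3r1, the regulatory subunit that docks PI3K on IRS proteins, read 12.05, 12.03 and 12.03 on the MTT arrays, against 11.75, 11.79 and 11.66 on the MPC arrays. Pik3r1 rose by 0.31 on the log2 scale (standard error 0.04, limma adjusted p = 0.00326). It lies on chromosome 13, where the 407 genes above the median signal had a median log2 difference of 0.18. Of these 407 genes, 242 were called higher in MTT cells and 7 lower, so a higher call was common there. On the chromosomes of Igf1r, Irs1 and Igfbp5 the same median was -0.0036 (chromosome 7) and -0.0068 (chromosome 1). The part of the chromosome in any of these calls was not tested.

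Among 13 FOXO factors and genes listed as their targets, MTT cells had 1 higher and 3 lower, where 7.87% of all genes passed. In limma 8 of the 13 had an unadjusted p below 0.05, as did 4092 of all 19937 genes. The arrays of the lines did not overlap for 8 of the 13, against 27.2% of all genes. The median log2 difference of this list was -0.10, and that of all genes -0.01. Foxo1 itself, the transcription factor that insulin and IGF signalling keep out of the nucleus, read 8.60, 8.52 and 8.62 on the MTT arrays, against 9.18, 9.11 and 9.04 on the MPC arrays. Foxo1 fell by 0.53 on the log2 scale (standard error 0.05, limma adjusted p = 0.000345). The thioredoxin inhibitor Txnip fell by 0.22 (limma adjusted p = 0.00551) and the cyclin Ccng2 by 0.24 (limma adjusted p = 0.0207), and Ccng2 missed the threshold without MTT replicate 1 or 3 or MPC replicate 2 (adjusted p 0.0619 to 0.0691). Bcl2l11, which encodes the death protein BIM, was higher at 10.13 ± 0.06 (SD of 3 arrays) in MTT cells, against 9.94 ± 0.06 (SD of 3 arrays) in MPC cells (limma adjusted p = 0.0428), and missed the threshold whichever of the 6 arrays was dropped (adjusted p 0.0601 to 0.135). Irs2 and Insr, both known FOXO targets as well, were not called. Over all lists of the pathway, 4 of 62 measured genes were higher and 5 were lower, with a median log2 difference of 0.00. That is 14.5% called, against 7.87% of all genes (3.93% higher and 3.94% lower). The lists were chosen with earlier results of these data known, so these shares do not test the pathway.

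**Figure D5:**
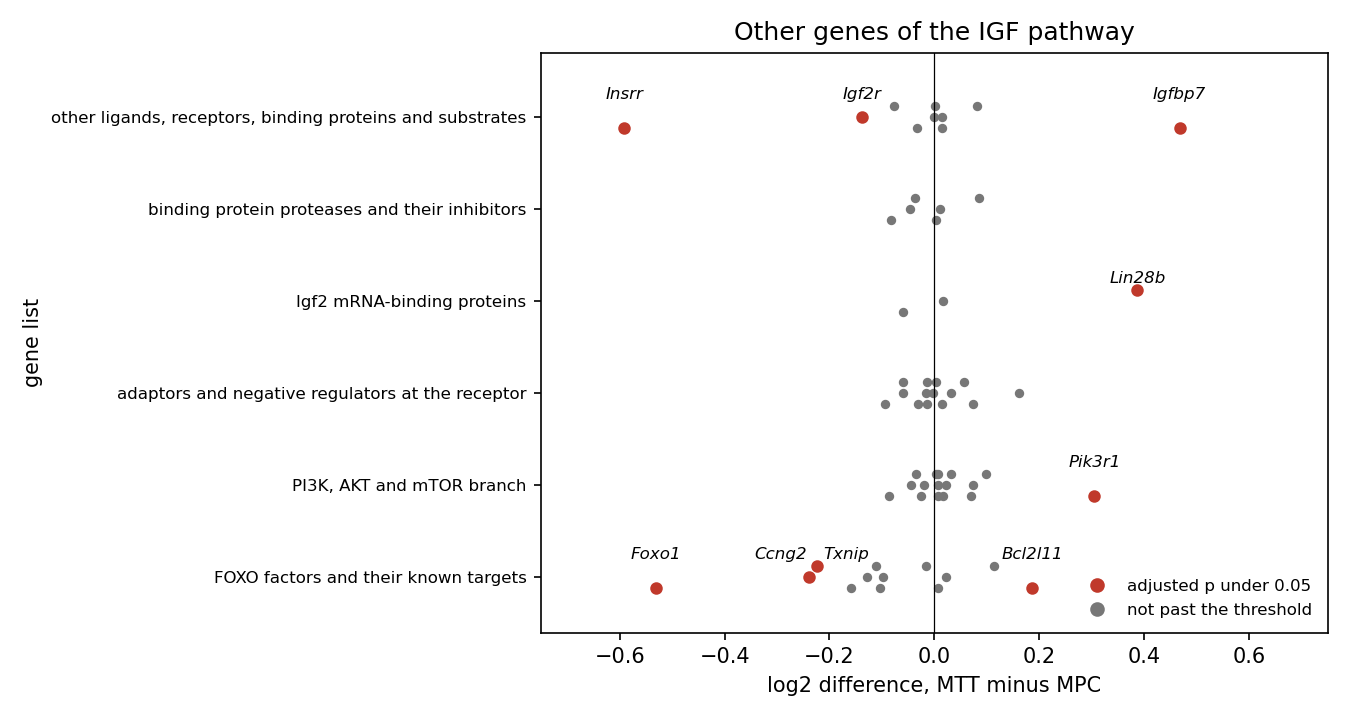
log2 difference between MTT and MPC cells (horizontal axis, MTT minus MPC) of 62 further genes of the IGF pathway, in 6 lists (vertical axis). Each point is 1 gene, and red points, named, passed a limma adjusted p of 0.05. Insrr at -0.59 and Foxo1 at -0.53 lie farthest to the left, and Igfbp7 at 0.47 farthest to the right.

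Both lines carried the defining genes of chromaffin cells. The 9 measured markers averaged 11.56 to 11.57 across MTT arrays and 11.55 to 11.58 across MPC arrays, with Th, the first enzyme of catecholamine synthesis, at 13.46 in MTT and 13.49 in MPC cells. Pnmt, which makes adrenaline, was the one marker below the median signal, with a mean of 7.02 over the 6 arrays. Within the list the vesicular transporter Slc18a1 was higher in MTT cells (log2 difference 0.27, limma adjusted p = 0.00424) and the granule protein Chgb lower (-0.15, limma adjusted p = 0.0233). Of 25 markers of hepatocytes, endothelial cells, macrophages and adrenal cortex, none passed in limma, where 7.87% of all genes passed. Of the 25, 3 had an unadjusted p below 0.05, and the list means were 6.26 to 7.26 on all 6 arrays. Array medians lay at 7.73 to 7.76 for MTT and 7.73 to 7.77 for MPC.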

How the data were processed

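The deposited values are log2 signals per probe set that the authors made with RMA (background correction, quantile normalization and summary of probes). Partek Genomic Suite and R are named for this in the methods, and Affymetrix Expression Console in the submitters' processing notes. Their versions and the genome build were not given in the sources used here. Of 34760 probe sets, 21640 had 1 gene symbol, 1321 had several and 11799 are not named here. The brightest probe set stood for each of 19937 genes. Chromosomes, neighbouring genes and promoter windows came from RefSeq of GRCm38.p6, where 19855 genes matched by Entrez ID.

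The lines were compared in R 4.3.3 by limma 3.58.1 (two-sided tests after lmFit and eBayes), with p-values adjusted by Benjamini-Hochberg over all genes and a threshold of 0.05. Tables were handled with the R package data.table (version 1.17.8), and figures were drawn with Python 3.11.15 and matplotlib 3.10.9. The script was tested on simulated data with known differences. It recovered 100 of 100 genes at a log2 difference of 1 and 53 of 100 at 0.25, and 5 of its 158 calls were false. A gene that was not called may thus still differ by a small amount. The number of arrays, 3 per line, limits the precision.

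All members are named, as are the called genes of each pathway list (or else the 2 with the smallest p), the neighbours of called members and the 3 genes most like the member with the smallest p. Igf2, Ins2, Igfbp1 and the markers were named for their role. Members and lists were chosen with earlier results of these data known. Other settings tried were a mean-variance trend, ordinary variances, a block for the replicate number, averaged probe sets, all probe sets, genes above the median signal, centring on array medians, cyclic loess and dropping each array.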

Additional observations from a re-analysis of the deposited data

How the results depend on the processing

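Igfbp5 stayed lower in MTT cells past the threshold under each of 14 alternatives, and Igf1r and Irs1 kept their direction but passed under 7 of 14 each. With ordinary variances 428 genes were higher and 396 lower, of the 10 members 0 and 1, and of the other pathway genes 2 and 3. Over all probe sets these counts were 506 and 436, 0 and 1, and 3 and 3. With probe sets averaged per gene 0 members were higher, and Irs1 minus Irs2 differed by 0.18 (exact permutation test, p = 0.2). A mean-variance trend gave 1302 lower genes, and the fit of genes above the median signal 1196; causes not stated were not tested. Without 1 array, 462 to 617 genes were higher and 429 to 659 lower, members numbered 0 to 1 higher and 1 to 2 lower, and pathway genes 3 to 4 higher and 3 to 4 lower. The count of lower genes was 452 without MTT replicate 1 or 3, 429 without MTT replicate 2, 496 without MPC replicate 1 and 460 without MPC replicate 2. In the same fits Igf1r minus Insr ranged from -0.28 to -0.20, Irs1 minus Irs2 from 0.28 to 0.34 and Igfbp2 minus Igfbp5 from 0.60 to 0.70. The sign turned for Igfbp2 (-0.034 to 0.057), Igfbp3 (-0.019 to 0.037) and Igfbp6 (-0.077 to 0.11), none of which was called. Centring on array medians or cyclic loess changed no call of a member and moved the median difference of all genes by at most 0.01.

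The replicate numbers are not shown to pair the samples. Deviations from the line means correlated at 0.12, 0.07 and 0.25 between arrays of the same number, and every array correlated best with the array of its own number, a hint from the data and not the design. For number 2 the margin was narrow: 0.074, against 0.066 for MTT 1 with MPC 2 and 0.059 for MTT 2 with MPC 1. The deviations cancel within a line, so these correlations are not independent of each other. With the replicate number as a block, 755 genes were higher and 746 lower, the same number of members passed (1 higher and 2 lower), and the adjusted p was 0.0477 for Igf1r, 0.0134 for Irs1, 0.000873 for Igfbp5 and 0.0774 for Igf2r, whose call ended.

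Signals under the median of all probe sets are not shown to lie above background, which limits what the arrays say of Igf1, Igfbp2, Igfbp3, Igfbp4 and Igfbp6.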

Other observations

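Irs1 and Irs2 followed one order over the replicate numbers in both lines. Irs1 deviated from its line mean by 0.05, -0.09 and 0.04 on MTT arrays 1, 2 and 3, and by 0.06, -0.07 and 0.01 on MPC arrays 1, 2 and 3. Irs2 deviated by 0.12, -0.10 and -0.02 on the MTT arrays, and by 0.10, -0.10 and -0.0016 on the MPC arrays. Both genes were thus highest on array 1 and lowest on array 2 of each line, which was noticed after the values were seen and was not tested.

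Of the 4 tensin genes that lie within 2 measured genes of an IGF binding protein gene, Tns1 and Tns3 were higher in MTT cells. Tns1, the second measured gene past Igfbp5 on chromosome 1, read 11.72 in MTT cells and 11.52 in MPC cells (log2 difference 0.20, limma adjusted p = 0.0153). Tns3, the neighbour of Igfbp3 on chromosome 11, read 8.99 in MTT cells and 8.64 in MPC cells (log2 difference 0.35, limma adjusted p = 0.00126), and Adcy1, the adenylate cyclase on the other side of the Igfbp1 and Igfbp3 pair, read 10.04 in MTT cells and 9.71 in MPC cells (log2 difference 0.33, limma adjusted p = 0.000798). The others, Tns4 next to Igfbp4 and Tns2 near Igfbp6, had log2 differences of 0.07 and 0.02 and did not pass (limma adjusted p = 0.274 and 0.796). Neighbour here means gene order and not distance. Tns1 starts at base 73910232 and Igfbp5 ends at 72874865, and Tns3 starts at 8431652 and Igfbp3 ends at 7215498. Tns4 lies closer, starting at 99065678 where Igfbp4 ends at 99052655. Of all genes 3.93% were called higher. These genes were picked after their values were seen, and any link to the binding protein genes was not tested.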
